A study of Mus musculus with 53 samples.

Results

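A set of 44 mouse genes of mitosis and chromosome segregation was followed in RNA of 53 whole-liver samples. The genes were chosen by name, with earlier results of these data known, and were matched by symbol. All 44 were present in each of 3 count tables, which have 36410 genes in common. In the diet experiment, 7 livers labelled Bmp8b knockout and 7 wild-type livers came from mice given a Western diet (Teklad TD88137) for 32 weeks, and 9 wild-type livers from mice given a low-fat control diet (Teklad TD08485) for as long. The submitters give 9 weeks as the age of these mice. In the carbon tetrachloride (CCl4) experiment, 6 livers labelled knockout and 4 wild-type livers were collected on day 3 after an intraperitoneal injection of 2 µl per g body weight of CCl4 mixed with an equal volume of olive oil, and 6 wild-type livers on day 3 after olive oil alone. In the partial hepatectomy experiment, 4 livers labelled knockout and 5 wild-type livers were collected on day 3 after surgery, and 5 wild-type pieces were the liver resected on day 0. Mice of the last 2 experiments were 16 weeks old. All mice were male C57BL/6J with wild-type littermates as controls, and no knockout liver was unchallenged. The deleted part of Bmp8b, and the cells in which it is deleted, are not given in the sources used here.

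Mitosis begins when the kinase Cdk1, bound to cyclins of the A and B types, drives chromosome condensation and spindle assembly. Kinetochores attach the chromosomes to the spindle, a checkpoint holds back the anaphase-promoting complex until attachment is complete, and the central spindle then guides the cut between the daughter cells. Most hepatocytes of an adult liver are quiescent, and loss of tissue or toxic injury brings many of them back into the cell cycle. In RNA of whole liver, more dividing cells and more RNA per dividing cell cannot be told apart.

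The promoters of these genes are shown first, because many share a pair of short motifs. The cell cycle genes homology region (CHR) was searched as TTTGAA or TTCGAA and the CCAAT box as CCAAT, each on both strands, from 250 bases before to 50 bases after the annotated start (RefSeq, GRCm38.p6). A window was found for 37 of the 44 genes. CHR was present in 30 of these 37 genes (81.1%), against 21.7% of 27025 genes with a window. CCAAT was present in 29 of 37 (78.4%), against 41.1% of all genes, and both motifs in 26 of 37 (70.3%), against 8.61%. The windows of Cdk1 (chr10:69352883-69353082, minus strand), Ccnb2 (chr9:70421525-70421724, minus strand), Cdc20 (chr4:118437314-118437513, minus strand), Kif11 (chr19:37376212-37376411, plus strand) and Ube2c (chr2:164769759-164769958, plus strand) are shown as examples with both motifs. That of Ccnb1 (chr13:100786457-100786656, minus strand) is shown as a member with neither TTTGAA nor TTCGAA. Other spellings of CHR were not searched, so Ccnb1 may still hold one. Each runs 5′ to 3′ with the gene, from 170 bases before to 30 bases after the start, and capitals mark CHR (TTTGAA, or TTCAAA on the other strand) and CCAAT (or ATTGG).
Cdk1: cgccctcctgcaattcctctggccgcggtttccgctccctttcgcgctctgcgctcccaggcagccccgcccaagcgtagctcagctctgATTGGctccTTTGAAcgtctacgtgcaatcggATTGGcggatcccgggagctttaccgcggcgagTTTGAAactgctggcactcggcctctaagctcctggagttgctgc
Ccnb2: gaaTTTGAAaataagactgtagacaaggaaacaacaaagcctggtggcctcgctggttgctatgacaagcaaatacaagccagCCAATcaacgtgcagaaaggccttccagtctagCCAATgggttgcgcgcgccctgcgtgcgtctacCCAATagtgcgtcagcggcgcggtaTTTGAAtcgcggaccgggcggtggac
Cdc20: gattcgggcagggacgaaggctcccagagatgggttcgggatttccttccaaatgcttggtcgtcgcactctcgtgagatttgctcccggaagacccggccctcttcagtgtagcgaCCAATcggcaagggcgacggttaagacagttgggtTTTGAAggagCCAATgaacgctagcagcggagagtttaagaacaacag
Kif11: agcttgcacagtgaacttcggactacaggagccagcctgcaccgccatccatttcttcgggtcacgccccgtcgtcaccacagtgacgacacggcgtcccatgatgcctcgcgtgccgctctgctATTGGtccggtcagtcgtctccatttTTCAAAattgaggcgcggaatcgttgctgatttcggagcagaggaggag
Ube2c: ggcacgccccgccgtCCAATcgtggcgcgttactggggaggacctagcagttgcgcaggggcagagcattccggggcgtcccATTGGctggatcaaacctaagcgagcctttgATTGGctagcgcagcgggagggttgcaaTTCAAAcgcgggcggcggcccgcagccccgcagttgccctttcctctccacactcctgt
Ccnb1: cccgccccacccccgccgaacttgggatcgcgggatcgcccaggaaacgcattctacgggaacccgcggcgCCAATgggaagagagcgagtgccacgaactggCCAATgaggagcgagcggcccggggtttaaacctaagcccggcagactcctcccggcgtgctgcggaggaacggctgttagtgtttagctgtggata
At least 2 copies of CCAAT stood in the full window of 56.8% of the members, against 13.3% of all genes. A forkhead motif, searched as GTAAACA or ATAAACA on both strands, was in the window of 8.11% of the members and 9.01% of all genes. The E2F motif, searched as TTTCCCGC or TTTGGCGC on both strands, was in the window of 0 of 37 members and 1.80% of all genes. A match is a string of letters and does not show that a factor binds there.

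Levels are given as CPM, read counts per gene relative to the total of the liver, with totals adjusted between livers by the trimmed mean of M-values (TMM). Differences are log2 fold changes ± standard error (SE) from the quasi-likelihood test of edgeR, fitted to all genes of 1 experiment. A gene is said to be higher or lower, or to be called, where its p, adjusted by Benjamini-Hochberg over all genes tested, is under 0.05. Each liver of the diet experiment had between 8963187 and 15196537 counts, each CCl4 or olive oil liver between 2661699 and 6364414, and each liver with hepatectomy between 2450358 and 6914274, so that a level near 1 CPM rests on few reads. RNA of Bmp8b, the targeted gene, was no lower under the knockout label. With Western diet it averaged 1.53 ± 0.523 CPM (SD, n = 7) in livers labelled knockout and 1.07 ± 0.491 CPM (SD, n = 7) in wild-type livers, then 1.18 ± 1.04 CPM (SD, n = 6) and 0.464 ± 0.629 CPM (SD, n = 4) in those groups after CCl4, and 2.12 ± 0.703 CPM (SD, n = 4) and 0.848 ± 0.407 CPM (SD, n = 5) in them after hepatectomy. Counts over a whole gene need not cover a deleted part, and the groups are called by their label throughout.

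The summed level of the 44 genes averaged 99.2 CPM in livers labelled knockout and 129.8 CPM in wild-type livers on Western diet. After CCl4 it averaged 1173 and 1178 CPM in those groups, and after hepatectomy 1069.8 and 846 CPM. In the injured livers the highest member per kb was Cdc20, the activator of the anaphase-promoting complex, with 36.5 CPM per kb in livers labelled knockout and 31.2 in wild-type livers after CCl4, and 41.6 and 22.3 in those groups after hepatectomy. Ccnb2, cyclin B2, and Cdca3, which takes part in entry into mitosis, came next per kb in each of these 4 groups. In control livers most members were close to the limit of detection. The summed level there averaged 43.9 CPM on low-fat diet, 40.5 CPM after olive oil and 52.0 CPM in the day 0 pieces. Per kb of exon, the highest member in all 3 control groups was Spc25, a subunit of the Ndc80 kinetochore complex, with 1.93 CPM per kb on low-fat diet, 1.22 after olive oil and 1.21 on day 0. Nek2, a kinase of centrosome separation, and Cenpa, the histone H3 variant of centromeres, were also among the first 5 per kb. Ccnb1, Ccnb2, Kif22 and Kif4 have named pseudogenes, and exons of Cdc20, Plk1 and Ube2c among others overlap genes of the other strand, so part of their reads may be counted elsewhere or come from a neighbour.

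**Figure D1:**
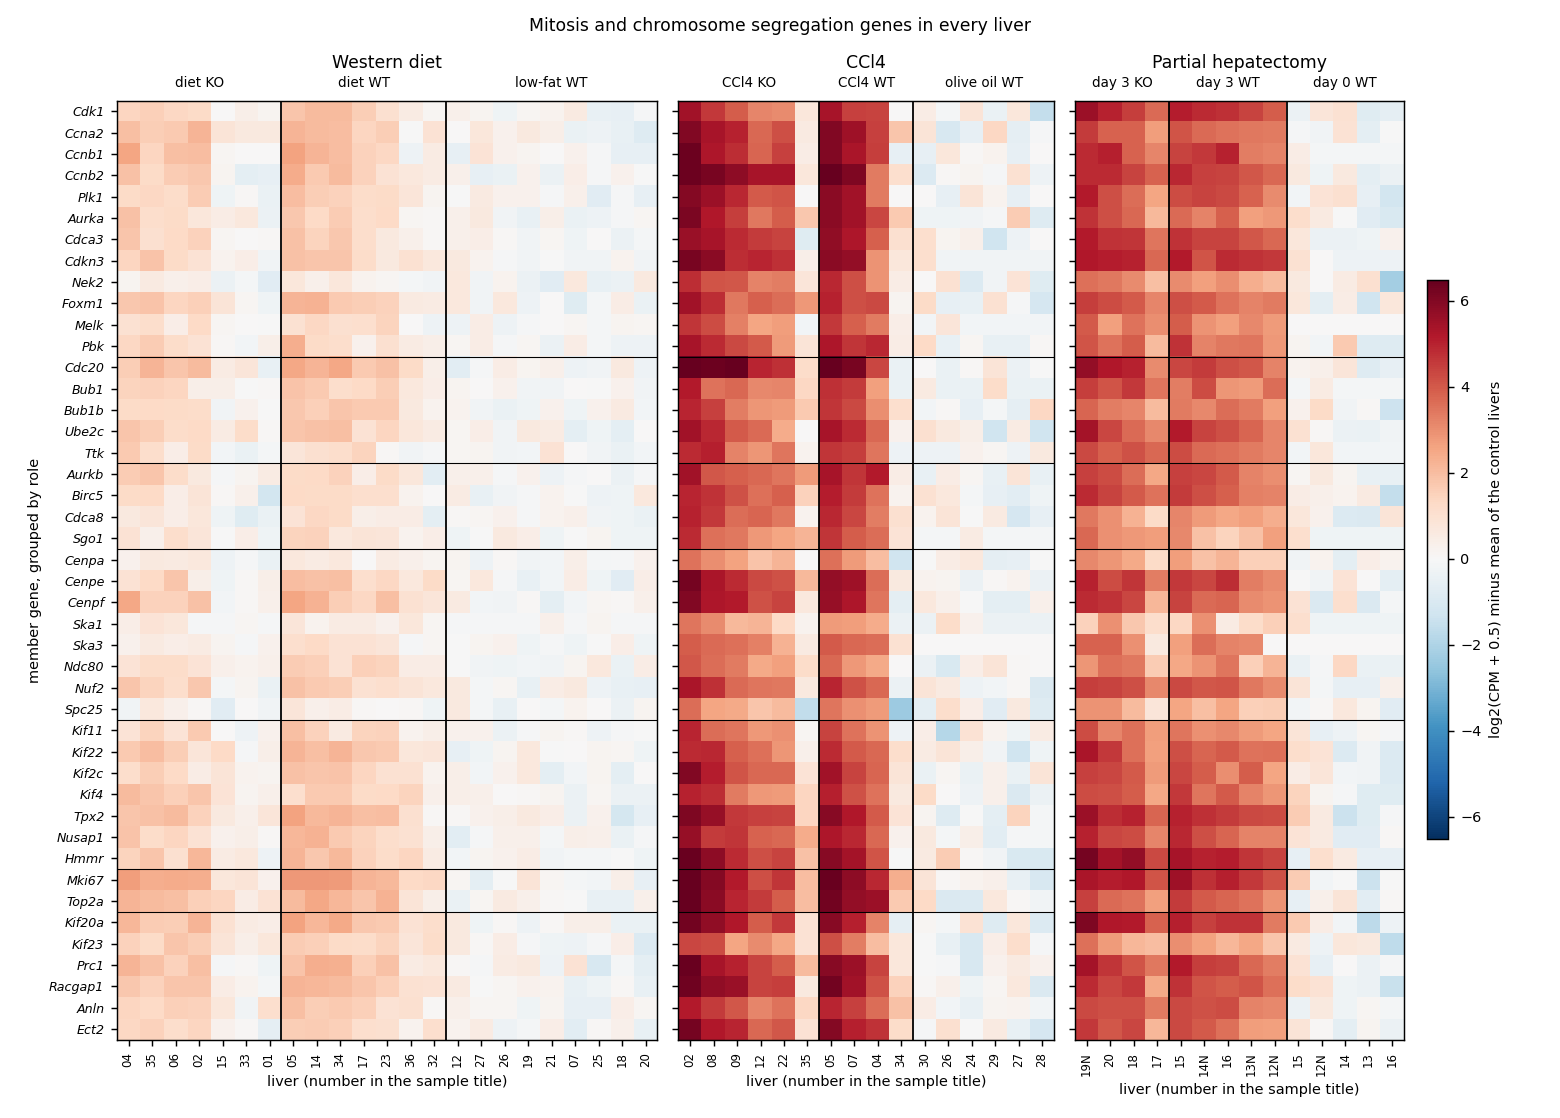
Level of each of the 44 genes (y axis, grouped by role) in each of 53 livers (x axis), as log2(CPM + 0.5) minus the mean of the control livers of the same experiment, with the livers of a group ordered by their mean over the genes. CCl4 livers 35 (labelled knockout) and 34 (wild type) are the palest of their groups.

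After CCl4, a hepatotoxin, mitosis genes of every role were higher in both challenged groups. In livers labelled knockout, 43 of 44 members were called higher than in olive oil livers, where 5.91% of all tested genes were, with a median log2 fold change of 5.35, or 5.31 with the gene at 0 in the controls set at its lower bound. In wild-type livers all 44 were called higher over the same olive oil livers, where 11.1% of all tested genes were, with a median of 5.24. No member was called lower. Only 3 members averaged at least 10 reads in the olive oil livers, so most entered the test through the CCl4 livers and had to differ, and the counts describe the members only.

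Regulators of mitotic entry were all called higher, 12 of 12 in each group. Cdk1 was at 3.00, 17.3, 18.5, 32.1, 51.4 and 93.1 CPM in the livers labelled knockout and at 1.69, 43.8, 46.2 and 87.5 CPM in the wild-type livers, against 0.239 to 3.28 CPM (median 1.97) in olive oil livers. The lowest CCl4 liver of each group lay within the olive oil range and all others above it. Its log2 fold change was 4.24 ± 0.85 (adjusted p = 0.00515) in livers labelled knockout and 4.56 ± 0.88 (adjusted p = 0.00254) in wild-type livers. For Plk1, the polo-like kinase that acts in centrosome maturation and mitotic exit, it was 6.08 ± 1.16 and 6.11 ± 1.19 in those groups. Foxm1, a transcription factor that activates many genes of this set, averaged 20.4 ± 14.8 CPM (SD, n = 6) in livers labelled knockout and 18.4 ± 13.6 CPM (SD, n = 4) in wild-type livers, against 0.777 ± 0.831 CPM (SD, n = 6) in olive oil livers. Cdkn3, a phosphatase of Cdk1 and Cdk2, had only 3 reads in all olive oil livers together. Its pooled level was 183 times theirs in livers labelled knockout (95% counting interval 62.4 to 893) and 175 times in wild-type livers (59.4 to 851).

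In the spindle checkpoint and the anaphase-promoting complex, 5 of 5 members were called higher in each group. Cdc20 had the largest log2 fold change among the 40 members with more than 3 reads in the olive oil livers. It was at 1.75, 26.1, 30.6, 83.0, 90.5 and 177 CPM in livers labelled knockout and at 0.242, 19.6, 72.2 and 141 CPM in wild-type livers, against 0.238 to 1.26 CPM (median 0.491) in olive oil livers. Wild-type liver 34 was the single CCl4 liver inside the olive oil range. The log2 fold change was 6.81 ± 1.21 (adjusted p = 0.00270) in livers labelled knockout and 6.59 ± 1.24 (adjusted p = 0.00215) in wild-type livers. Bub1b, the checkpoint protein BubR1, had log2 fold changes of 4.20 ± 0.76 and 4.23 ± 0.79, and Ube2c, the ubiquitin-conjugating enzyme of the complex, 4.52 ± 0.99 and 4.75 ± 1.02.

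The chromosomal passenger complex corrects wrong attachments, and its kinase Aurkb had log2 fold changes of 5.51 ± 0.92 in livers labelled knockout and 6.06 ± 0.94 in wild-type livers. Its subunit Birc5 (survivin) was at 5.26, 24.0, 30.4, 35.7, 52.1 and 63.9 CPM in livers labelled knockout and at 1.94, 23.1, 47.4 and 70.9 CPM in wild-type livers, against 0.772 to 3.52 CPM (median 1.28) in olive oil livers. Again liver 34 alone lay inside the olive oil range. Sgo1, which protects cohesin at centromeres, had 1 read in all olive oil livers together. Its pooled level was 165 times theirs in livers labelled knockout (95% counting interval 29.1 to 6547) and 203 times in wild-type livers (35.9 to 8047).

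Among kinetochore genes, 7 of 8 were called higher in livers labelled knockout and 8 of 8 in wild-type livers. Ska3, a subunit of the complex that couples kinetochores to microtubules, had no read in the olive oil livers and was at least 36.5-fold higher in livers labelled knockout and at least 45.7-fold higher in wild-type livers, set against a floor of 3 reads over the group. Cenpa had the smallest log2 fold change in wild-type livers, 2.59 ± 0.67 (adjusted p = 0.0128), and 2.59 ± 0.63 in livers labelled knockout. Without wild-type liver 05 the value of Cenpa in wild-type livers was 1.94 and it was not called. Spc25 was the member not called in livers labelled knockout, with 2.36 ± 0.78 (adjusted p = 0.0682). It was at 0.751, 12.7, 15.2, 20.7, 21.8 and 47.3 CPM in livers labelled knockout and at 0.242, 26.0, 30.1 and 42.0 CPM in wild-type livers, against 1.67, 1.80, 2.01, 4.65, 5.40 and 7.85 CPM in olive oil livers. Liver 35, labelled knockout, and wild-type liver 34 lay below every olive oil liver for Spc25. The 3 higher olive oil values came from libraries with the i5 index D504 and the 3 lower from libraries with D505. In a fit with the i5 index as covariate, Spc25 had a log2 fold change of 0.35 ± 0.56 (adjusted p = 0.688) in livers labelled knockout and 0.45 ± 0.65 (adjusted p = 0.642) in wild-type livers, and it was called in neither. Ndc80 and Nuf2, which form the other arm of the Ndc80 complex, had log2 fold changes of 3.77 ± 0.72 and 4.81 ± 0.92 in livers labelled knockout, and 3.36 ± 0.75 and 4.68 ± 0.96 in wild-type livers.

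Spindle motors and assembly factors were called higher for 7 of 7 members in each group, and Kif11, the kinesin that pushes spindle poles apart, had the smallest change of them, 3.68 ± 0.81 in livers labelled knockout and 3.50 ± 0.85 in wild-type livers. Tpx2, which activates the kinase Aurka on the spindle, was at 3.00, 27.2, 28.4, 31.8, 66.2 and 87.5 CPM in livers labelled knockout and at 1.94, 20.3, 47.9 and 80.6 CPM in wild-type livers, against 0.238 to 3.09 CPM (median 0.769) in olive oil livers. Livers 35 and 34 fell inside the olive oil range. Mki67, the proliferation marker that coats mitotic chromosomes, was at 9.51, 45.5, 61.3, 88.8, 158 and 221 CPM in livers labelled knockout and at 12.6, 73.3, 138 and 212 CPM in wild-type livers, against 0.717 to 4.02 CPM (median 2.30) in olive oil livers. Here all CCl4 livers lay above all olive oil livers. Top2a, the topoisomerase that untangles sister chromatids, had log2 fold changes of 5.43 ± 0.87 and 5.69 ± 0.90 in livers labelled knockout and wild-type livers. The central spindle and cytokinesis genes were called higher for 6 of 6 members in each group, among them Prc1, which bundles microtubules of the central spindle (5.78 ± 0.92 and 5.75 ± 0.95).

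**Figure D2:**
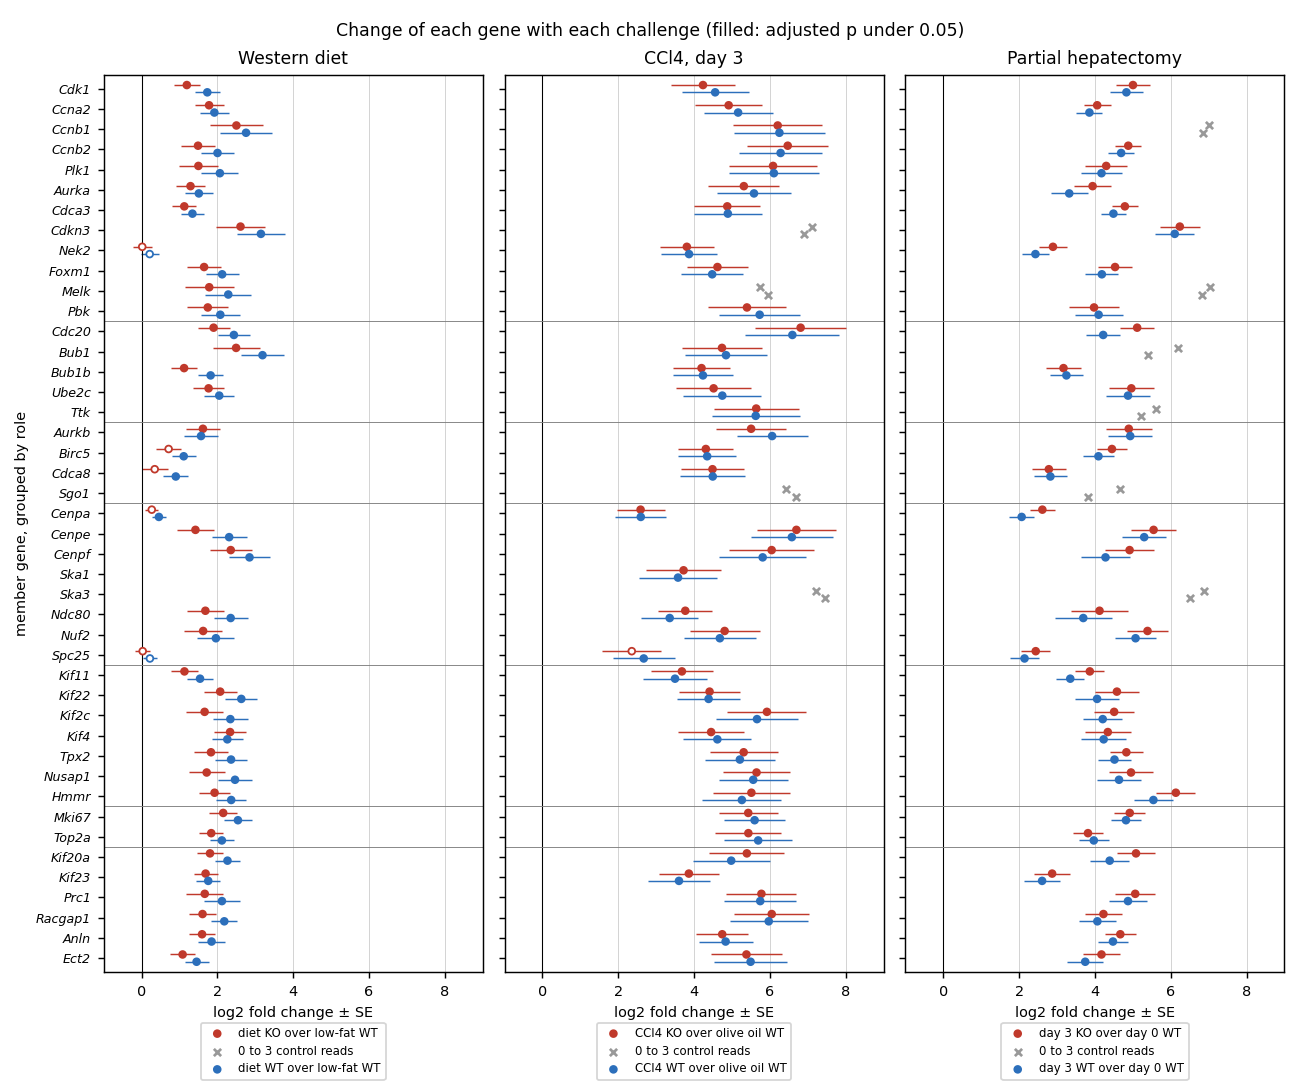
log2 fold change ± SE (x axis) of each member (y axis, grouped by role) with Western diet, CCl4 and partial hepatectomy, for livers labelled knockout and wild-type livers over the wild-type controls of each experiment. Grey crosses mark members with 0 to 3 control reads, whose fitted value depends on the prior count, and no called member is lower.

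The spread among CCl4 livers ran through the whole gene set. Among livers labelled knockout, liver 35 had the lowest level for all 44 members and liver 02 the highest for 42. Among wild-type livers, liver 34 was lowest for all 44 members and liver 05 highest for all 44. The mean over the 44 genes of log2(CPM + 0.5), minus the control mean, is called the mitosis score. It was 0.96 in liver 35 and 3.53 to 5.44 in the other livers labelled knockout, and 0.45 in liver 34 and 3.68 to 5.23 in the other wild-type livers, against -0.30 to 0.28 in olive oil livers. In liver 35, 19 of the 44 genes were above every olive oil liver, and in liver 34, 15, while all 44 were in each of the other CCl4 livers. Hence 19 of 44 members lay above olive oil in every liver labelled knockout, where 3.04% of all tested genes did. In every wild-type liver 15 of 44 did, where 7.91% of all tested genes did.

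Livers 35 and 34 were the only CCl4 livers whose libraries carried the i5 index D505, which olive oil livers 28, 29 and 30 carried too. Some other genes in them also stood apart from the other CCl4 livers of their group, and some did not. Cdkn1a, the CDK inhibitor p21, was at 152 CPM in liver 35 and 66.1 CPM in liver 34, against 7.17 to 11.6 CPM in olive oil livers with D505 and 0.821 to 1.54 CPM in those with D504. In the other CCl4 livers Cdkn1a was at 13.6 to 49.1 CPM under the knockout label, and at 49.7, 51.8 and 138 CPM in wild-type livers. Ccnd1, cyclin D1 of the G1 phase, was at 9.01 CPM in liver 35 and 4.36 CPM in liver 34, below the 23.8 to 56.6 CPM of all olive oil livers, while every other CCl4 liver was above them. The summed neutrophil markers were 62.3 CPM in liver 35 and 176 CPM in liver 34, and 61.4 CPM in wild-type liver 04, against 0.547 to 16.7 CPM in olive oil livers. Macrophage and monocyte markers summed to 742 CPM in liver 35 and 532 CPM in liver 34, the highest of their groups, against 122 to 347 CPM. Cholangiocyte markers summed to 746 CPM in liver 35 and 214 CPM in liver 34, against 60.4 to 134 CPM. The wild-type CCl4 livers together ran from 207 to 338 CPM, so liver 34 was not apart from its group there. Endothelial markers summed to 410.1 CPM in liver 35 and 373 CPM in liver 34, against 321 to 383 CPM in olive oil livers with D505 and 159 to 203 CPM in those with D504. In the other CCl4 livers they summed to 170 to 250 CPM under the knockout label and to 180 to 186 CPM in wild-type livers. Hepatocyte markers summed to 117006 CPM in liver 35 and 82465 CPM in liver 34, the lowest of their groups, against 109798 to 148459 CPM in olive oil livers. The part of these cells in the low mitosis scores was not tested. Without both livers, 44 of 44 members were called higher in each group, with medians of 5.60 in livers labelled knockout and 5.64 in wild-type livers. With the i5 index as a covariate, 35 members were called in livers labelled knockout and 33 in wild-type livers, and the medians were 3.21 and 3.01. The share of all genes called in these other fits is not given here. Index D503 held only CCl4 livers, so that for 7 of the 10 CCl4 livers index and treatment cannot be told apart, and only livers 22 (D504), 35 and 34 share an index with olive oil livers. Liver 22, labelled knockout, had a mitosis score of 3.53, against -0.037 to 0.075 in the olive oil livers with D504, while livers 35 and 34, at 0.96 and 0.45, are set against -0.30 to 0.28 in those with D505.

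**Figure D3:**
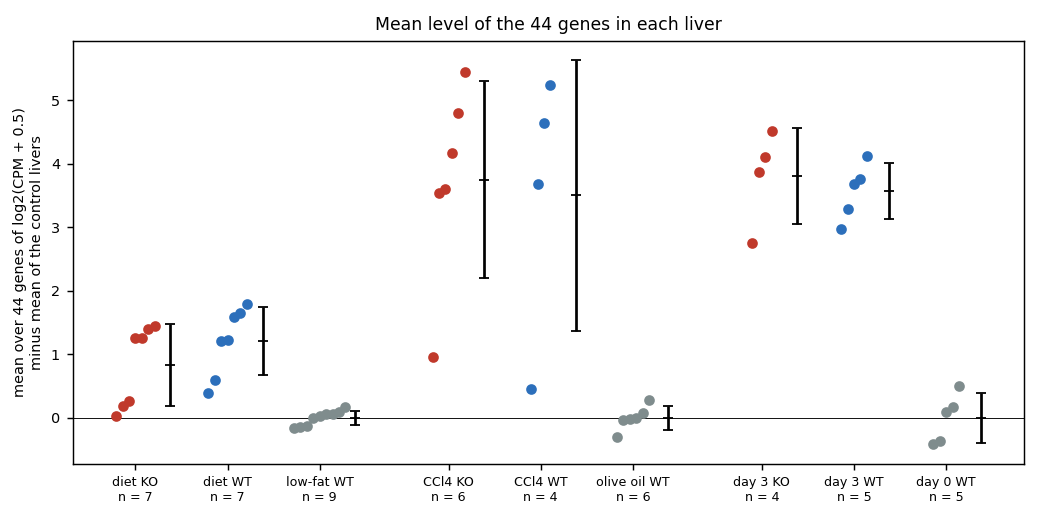
Mitosis score of each liver (y axis, log2 units above the control mean of its experiment) by group (x axis), with points for livers and bars for the mean ± SD. The lowest CCl4 livers stand at 0.96 (liver 35, labelled knockout) and 0.45 (liver 34, wild type).

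On day 3 after partial hepatectomy, when the remaining liver regrows, every member that could be tested was higher in both groups. In livers labelled knockout all 43 tested were called higher than in the day 0 pieces, where 7.23% of all tested genes were, with a median log2 fold change of 4.67. In wild-type livers all 43 were called higher over the same pieces, where 9.87% of all tested genes were, with a median of 4.23. Ska1, another subunit of the Ska complex, had too few reads to be tested, and 4 members averaged at least 10 reads on day 0, so these counts too describe the members only. Day 3 and day 0 libraries carried different i5 indexes, and index and day cannot be told apart.

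Cdk1 was at 16.8, 29.3, 42.7 and 62.5 CPM in the livers labelled knockout and at 19.7, 27.6, 35.6, 38.3 and 45.4 CPM in the wild-type livers, against 0.282, 0.392, 0.524, 1.79 and 2.13 CPM in the day 0 pieces. No day 3 liver overlapped with a day 0 piece. The log2 fold change was 5.00 ± 0.44 (adjusted p = 3.44e-07) in livers labelled knockout and 4.83 ± 0.43 (adjusted p = 2.91e-07) in wild-type livers. Ccnb1, cyclin B1, had 1 read in the day 0 pieces together, and was at 4.33, 7.15, 15.0 and 17.6 CPM in livers labelled knockout and at 4.67, 5.04, 10.8, 12.9 and 16.6 CPM in wild-type livers. Its pooled level was 219 times that of day 0 in livers labelled knockout (95% counting interval 38.7 to 8714) and 188 times in wild-type livers (33.2 to 7471). Cdkn3 had the largest log2 fold change among the 37 members with more than 3 control reads, 6.24 ± 0.53 and 6.11 ± 0.52 in those groups. Foxm1 averaged 20.1 ± 6.98 CPM (SD, n = 4) in livers labelled knockout and 15.6 ± 4.55 CPM (SD, n = 5) in wild-type livers, against 0.931 ± 0.736 CPM (SD, n = 5) on day 0.

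Cdc20 was at 19.8, 75.6, 88.0 and 128 CPM in livers labelled knockout and at 22.3, 39.8, 42.9, 48.1 and 55.1 CPM in wild-type livers, against 0.847, 1.18, 2.36, 2.54 and 3.65 CPM on day 0. All day 3 livers were above all day 0 pieces, and 3 of the 4 livers labelled knockout lay above every wild-type liver. Melk, a kinase of the mitotic phase, had no read on day 0 and was at least 29.4-fold higher in livers labelled knockout and at least 27.1-fold higher in wild-type livers. Ska3 had none either and was at least 27.3-fold and 20.2-fold higher. The smallest changes were those of Cenpa, 2.61 ± 0.33 in livers labelled knockout and 2.07 ± 0.33 in wild-type livers, and Spc25, 2.44 ± 0.39 and 2.14 ± 0.38.

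Birc5 was at 16.5, 22.9, 30.7 and 42.3 CPM in livers labelled knockout and at 13.5, 13.6, 21.3, 26.8 and 33.9 CPM in wild-type livers, against 0, 1.22, 1.34, 1.57 and 1.69 CPM on day 0. Kif11 was at 11.1, 15.7, 21.1 and 32.8 CPM in livers labelled knockout and at 9.87, 11.6, 13.6, 15.1 and 19.4 CPM in wild-type livers, against 0.746, 0.912, 1.18, 1.41 and 2.62 CPM on day 0. Neither gene overlapped between day 3 and day 0. Hmmr, a spindle assembly factor, had the largest change of the spindle group, 6.13 ± 0.51 in livers labelled knockout and 5.54 ± 0.51 in wild-type livers. Kif23, the motor of the centralspindlin complex, had the smallest of the cytokinesis genes, 2.87 ± 0.48 and 2.61 ± 0.47.

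The median SD of log2(CPM + 0.5) over the 44 members was 0.78 in livers labelled knockout and 0.52 in wild-type livers after hepatectomy, and 1.61 and 2.16 in those groups after CCl4. Above every day 0 piece in every liver lay 44 of 44 members in livers labelled knockout, where 6.55% of all tested genes did. In wild-type livers 42 of 44 did, where 7.04% of all tested genes did. Liver 17 was the lowest liver labelled knockout for 43 members and liver 19N the highest for 39. Among wild-type livers, 12N was lowest for 33 members and 15 highest for 33.

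After 32 weeks of Western diet, a diet used to induce fatty liver disease, most members were higher in both groups. In livers labelled knockout 35 of 40 members tested were called higher than on low-fat diet, where 15.1% of all tested genes were, with a median log2 fold change of 1.66. In wild-type livers 38 of 40 were called higher over the same low-fat livers, where 20.4% of all tested genes were, with a median of 2.10. No member was called lower. Ska1, Ska3, Sgo1 and the checkpoint kinase Ttk had too few reads to be tested. Only 15 members averaged at least 10 reads on low-fat diet. The rest could enter the test through the Western diet livers, so these counts too describe the members only. Not called were Nek2, Spc25, Cenpa, Birc5 and Cdca8 in livers labelled knockout, and Nek2 and Spc25 in wild-type livers. Within libraries of 1 i5 index, 13 of 41 members tested (D501) and 3 of 41 (D502) were called in livers labelled knockout, and 35 and 20 of 41 in wild-type livers. Of the livers labelled knockout, only 33 and 35 carried D502, so the counts of the 2 indexes differ in group size too. The share of all genes called within an index is not given here.

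Mki67 was at 2.28 to 14.4 CPM (median 11.2) in livers labelled knockout and at 5.06 to 15.8 CPM (median 10.1) in wild-type livers, against 0.937 to 3.54 CPM (median 1.76) on low-fat diet. All 7 wild-type livers and 4 of the 7 livers labelled knockout lay above every low-fat liver. Its log2 fold change was 2.15 ± 0.37 (adjusted p = 2.63e-04) in livers labelled knockout and 2.54 ± 0.36 (adjusted p = 1.58e-05) in wild-type livers. Bub1, the kinase that recruits checkpoint proteins to kinetochores, had the largest change in wild-type livers, 3.19 ± 0.58 (adjusted p = 1.54e-04), at 0.984 ± 0.509 CPM (SD, n = 7) against 0.0967 ± 0.0873 CPM (SD, n = 9) on low-fat diet. Among livers labelled knockout the largest was that of Cdkn3, 2.61 ± 0.66 (adjusted p = 0.00553).

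Cdk1 was at 1.31 to 4.66 CPM (median 3.76) in livers labelled knockout and at 1.47 to 7.05 CPM (median 4.95) in wild-type livers, against 0.729 to 2.21 CPM (median 1.46) on low-fat diet. The ranges of both diet groups overlapped with that of the low-fat livers, and the log2 fold change was 1.19 ± 0.34 and 1.73 ± 0.33 in livers labelled knockout and wild-type livers. Cdc20 was at 0.359 to 5.00 CPM (median 3.14) in livers labelled knockout and at 1.08 to 6.46 CPM (median 4.07) in wild-type livers, against 0.251 to 1.35 CPM (median 0.656) on low-fat diet. Of the roles, the chromosomal passenger genes had the lowest median. Birc5 differed by 0.71 ± 0.33 (adjusted p = 0.118) in livers labelled knockout and by 1.11 ± 0.32 (adjusted p = 0.00841) in wild-type livers, and Cdca8, the subunit borealin, by 0.35 ± 0.34 (adjusted p = 0.496) and 0.90 ± 0.33 (adjusted p = 0.0315). Spc25 differed by 0.029 ± 0.20 in livers labelled knockout and 0.22 ± 0.20 in wild-type livers, and Nek2 by 0.016 ± 0.25 and 0.21 ± 0.24. Racgap1, a subunit of centralspindlin, had log2 fold changes of 1.61 ± 0.35 and 2.18 ± 0.34.

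Livers on Western diet differed in how many members they had above the low-fat range. Liver 01 was the lowest liver labelled knockout for 21 members and liver 33 for 16, and among wild-type livers, 32 was lowest for 27 and 36 for 14. In livers 01, 33 and 15, labelled knockout, 5, 4 and 11 members lay above every low-fat liver, and in wild-type livers 32 and 36, 15 and 25 did. In the remaining livers the count was 38 to 42 under the knockout label and 39 to 43 in wild-type livers. The mitosis score averaged 0.83 ± 0.64 in livers labelled knockout and 1.21 ± 0.54 in wild-type livers (SD, n = 7 each), against -0.16 to 0.16 in single low-fat livers. Above low-fat diet in every liver lay 0 of 44 members in livers labelled knockout, where 0.984% of all tested genes did. In wild-type livers 10 of 44 did, where 4.72% of all tested genes did.

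Markers of other cell types moved with the mitosis genes in part of the comparisons. Of 10 macrophage and monocyte markers, 7 were called higher in livers labelled knockout and 9 in wild-type livers on Western diet, with sums of 197 to 869 CPM and 354 to 753 CPM, against 129 to 349 CPM on low-fat diet. After CCl4, 6 of 9 tested were called higher in livers labelled knockout and 5 of 9 in wild-type livers. After hepatectomy, 0 of 6 tested were in livers labelled knockout and 0 of 6 in wild-type livers, with sums of 119 to 291 CPM and 149 to 281 CPM, against 161 to 239.5 CPM on day 0. Stellate cell and myofibroblast markers were called higher for 8 and 8 of 10 in livers labelled knockout and wild-type livers on Western diet, for 5 and 5 after CCl4, and for 3 and 5 after hepatectomy. Hepatocyte markers were called lower for 8 and 8 of 10 on Western diet in livers labelled knockout and wild-type livers, where 10.2% and 17% of all tested genes were, with medians of -0.52 and -0.60. After CCl4, 1 and 1 of 10 were called lower, and after hepatectomy 1 and 2. After hepatectomy 1 and 1 of 10 were also called higher, in both groups Alb (albumin), by 0.73 ± 0.12 and 0.76 ± 0.11. The hepatocyte sums were 133915 to 159351 CPM and 137913 to 159719 CPM there, against 95939 to 112959 CPM on day 0. Cholangiocyte markers were called higher for 3 and 5 of 8 on Western diet in those groups, for 1 and 1 of 4 tested after CCl4, and for 0 and 1 of 4 after hepatectomy. Few neutrophil markers could be tested, and 1 and 2 of 2 were called higher on Western diet, 0 and 1 of 2 after CCl4, and 0 and 1 of 1 after hepatectomy. Endothelial markers were called higher for 2 and 4 of 10 on Western diet, and lower for 0 and 2 after CCl4 and for 2 and 3 after hepatectomy. Of all tested genes, 15.1% and 20.4% were called higher in livers labelled knockout and wild-type livers on Western diet, 5.91% and 11.1% after CCl4, and 7.23% and 9.87% after hepatectomy. Called lower were 3.4% and 8.87% of them after CCl4, and 5% and 7.5% after hepatectomy. B and plasma cell markers were called in no comparison with controls, with 6 tested on Western diet and 1 in each other experiment. Erythroid precursor markers summed to 56.2 to 119.7 CPM in livers labelled knockout and 41.8 to 86.9 CPM in wild-type livers after CCl4, against 163 to 249 CPM in olive oil livers. Their list includes globin genes, so the sum does not measure dividing cells. Gata1, a defining marker, had no read in either CCl4 group. It also had none on low-fat diet, on day 0 and in day 3 livers labelled knockout. T and NK cell markers summed to 3.35 to 8.63 CPM in livers labelled knockout and 4.61 to 26.0 CPM in wild-type livers on Western diet, against 3.09 to 14.6 CPM on low-fat diet, and 0 and 2 of 4 tested were called higher. The part of these cells in the levels of the mitosis genes was not tested.

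The sizes of the wild-type responses were compared in 1 edgeR fit to all 53 livers. The response to CCl4 exceeded that to Western diet for 30 of 44 members, where 8.37% of all tested genes were called higher, with a median log2 difference of 3.25. Among the 39 members with more than 3 control reads in both experiments, Aurkb differed most, by 4.58 ± 1.02 (adjusted p = 0.00143), and Ndc80 least, by 1.07 ± 0.98. Without livers 34 and 35, 40 of 44 were called, and without wild-type CCl4 liver 05, 18 were. The response to hepatectomy exceeded that to Western diet for 4 of 44 members, where 2% of all tested genes were called higher, with a median of 2.18. These were Birc5 (3.00 ± 0.80), Cdk1 (3.13 ± 0.92), Cdca3 (3.15 ± 0.84) and Anln, a scaffold of the contractile ring (2.69 ± 0.79). That count was 19 without CCl4 livers 34 and 35, 8 without liver 34 alone and 1 without day 0 piece 16. The fit gives each gene 1 spread over all 9 groups, so CCl4 livers enter it although they are not part of this difference. The median SD of log2(CPM + 0.5) over the members was 2.16 for wild-type CCl4 livers. For wild-type livers it was 0.52 after hepatectomy and 0.63 with Western diet. The share of all genes called in the fits with livers left out is not given here.

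Between CCl4 and hepatectomy, 0 of 44 members were called in edgeR, where 6.09% of all tested genes were in either direction. At an unadjusted p under 0.05 there was 1 member, Aurka, a kinase of the spindle poles, and DESeq2 called 0. The median log2 difference, CCl4 minus hepatectomy, was 0.75. Among the 36 members with more than 3 control reads in both experiments it ran from -0.45 ± 1.35 for Nuf2 to 2.39 ± 1.42 for Cdc20. The experiments also differ in depth and controls, and experiment and challenge cannot be told apart.

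Livers labelled knockout were then set against wild-type livers under the same challenge. No member was called in edgeR or DESeq2 in any of the 3 experiments, while 0.0154% of all tested genes were called in the diet experiment, 0.00857% with CCl4 and 0.154% on day 3 of hepatectomy. At an unadjusted p under 0.05 in edgeR there was 1 member on Western diet, Bub1b, 0 after CCl4, and 1 after hepatectomy, Cdc20.

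On Western diet the median log2 fold change of livers labelled knockout over wild-type livers was -0.45, and 38 of 40 members had a negative value, where 50.4% of all tested genes did. It ran from -0.89 ± 0.44 for Cenpe, the kinesin that carries chromosomes to the spindle equator, to 0.073 ± 0.37 for Kif4, a kinesin bound to chromosomes. Bub1b was at 0.656 to 2.91 CPM (median 2.64) in livers labelled knockout and at 1.08 to 4.28 CPM (median 3.88) in wild-type livers, with overlapping ranges and a log2 fold change of -0.70 ± 0.33 (adjusted p = 0.813). Within index D501 the median was -0.74 and within D502 -0.14, where only livers 33 and 35 were labelled knockout. Over all livers it was -0.59 to -0.29 with 1 liver left out, nearest to 0 without liver 01, labelled knockout, and as near without wild-type liver 05. Members moved together within a liver, as the ranks above show, so their number adds no independent mice.

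After CCl4 the median was -0.011, from -0.55 ± 0.66 for Aurkb to 0.41 ± 0.83 for Kif20a, a kinesin of the central spindle. It was -0.39 without liver 02, labelled knockout, and 0.56 without wild-type liver 05. On day 3 after hepatectomy the median was 0.30, and 5 of 43 members had a negative value, where 49.5% of all tested genes did. Values ran from -0.15 ± 0.31 for Top2a to 0.90 ± 0.33 (adjusted p = 0.412) for Cdc20. Without liver 17, labelled knockout, Cdc20 was at 1.23 and was called, and the median was 0.55. Without liver 19N, labelled knockout, the median was 0.061. Top2a was at 16.5, 30.1, 33.9 and 58.1 CPM in livers labelled knockout and at 19.7, 30.3, 35.6, 42.2 and 62.5 CPM in wild-type livers, with overlapping ranges. In the joint fit of the label effects, 0 of 44 members were called in edgeR or DESeq2 for any pair of challenges, and 0 had an unadjusted p under 0.05 in edgeR. Of all tested genes, 0.0395% were called for CCl4 minus hepatectomy, 0% for CCl4 minus diet and 0.0158% for hepatectomy minus diet.

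**Figure D4:**
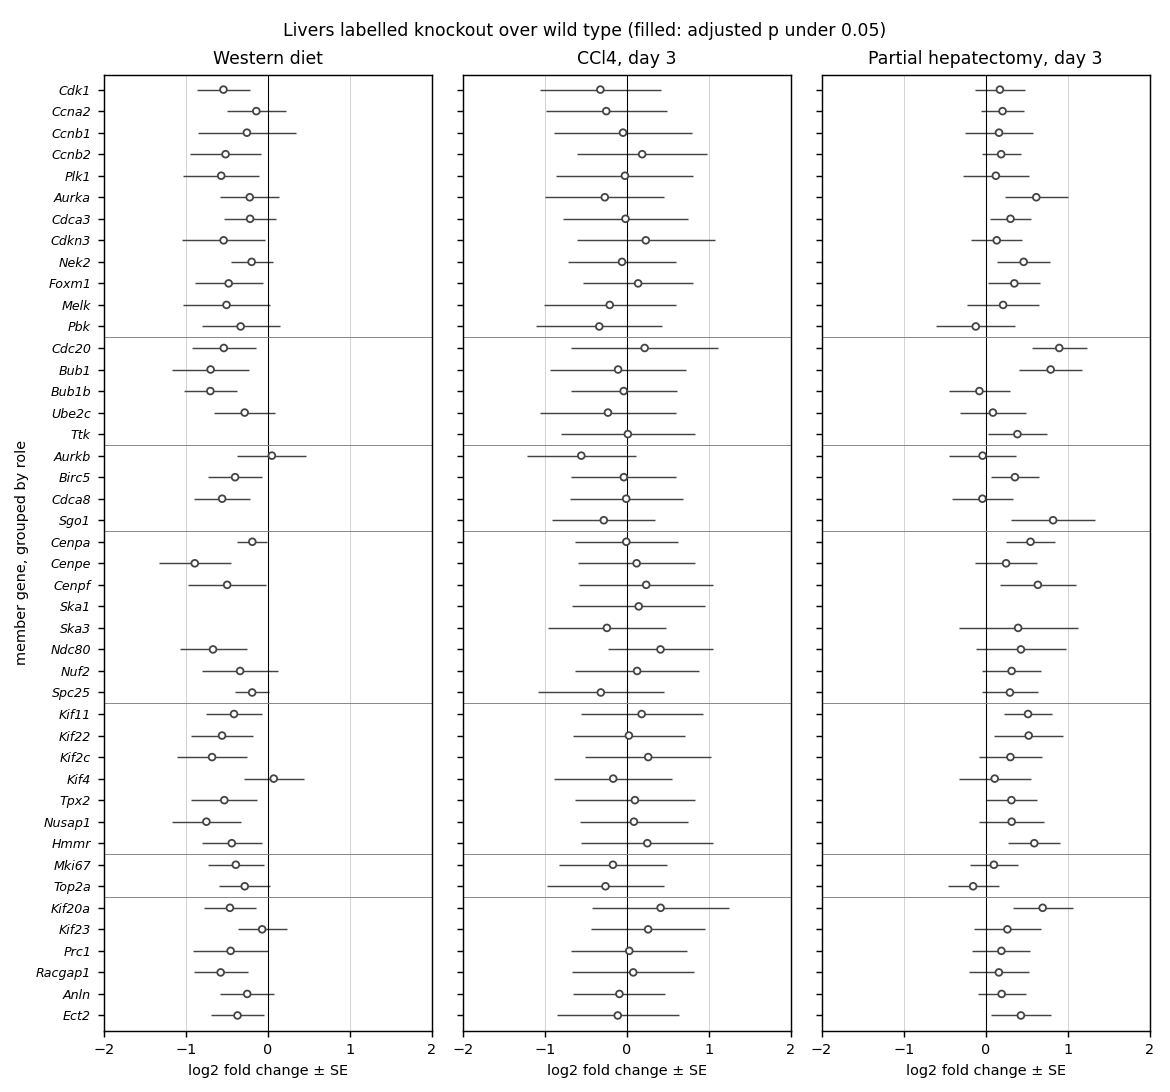
log2 fold change ± SE (x axis) of livers labelled knockout over wild-type livers for each member tested (y axis, grouped by role) with Western diet, CCl4 and hepatectomy. No member passed an adjusted p of 0.05 in edgeR, and the medians are -0.45, -0.011 and 0.30.

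Neighbouring genes of the cell cycle were followed in 3 lists. Of 60 other genes of mitosis, 48 of 59 tested were called higher in livers labelled knockout and 49 of 59 in wild-type livers after CCl4, 49 of 54 and 45 of 54 after hepatectomy, and 25 of 49 and 33 of 49 on Western diet, with medians of 3.82, 3.79, 3.20, 3.06, 0.85 and 1.11. Of 40 genes of DNA replication and S phase, 26 of 38 were called higher in livers labelled knockout and 31 of 38 in wild-type livers after CCl4, 27 of 37 and 19 of 37 after hepatectomy, and 16 of 37 and 20 of 37 on Western diet, with medians of 2.08, 2.14, 1.41, 1.09, 0.38 and 0.58. Over all tested genes, 5.91% and 11.1% were called higher in those groups after CCl4, 7.23% and 9.87% after hepatectomy, and 15.1% and 20.4% on Western diet. Mcm6, a subunit of the replicative helicase, averaged 67.3 ± 35.5 CPM (SD, n = 6) in livers labelled knockout and 69.6 ± 42.5 CPM (SD, n = 4) in wild-type livers after CCl4, against 5.10 ± 2.59 CPM (SD, n = 6) in olive oil livers. Of 21 G1 cyclins, CDK inhibitors and genes of the RB family, 3 of 19 and 5 of 19 were called higher in those groups after CCl4, 5 of 18 and 6 of 18 after hepatectomy, and 7 of 20 and 8 of 20 on Western diet. Ccnd1 had log2 fold changes of 1.73 ± 0.22 in livers labelled knockout and 1.37 ± 0.21 in wild-type livers after hepatectomy. Cdkn1a was called higher in all 6 comparisons, by 3.27 ± 0.64 and 3.74 ± 0.68 in those groups after CCl4, and by 3.87 ± 0.23 and 3.12 ± 0.23 after hepatectomy. A few genes of these lists were called lower, and they are named here after their values were seen. Mcm10, which helps start replication forks, had log2 fold changes of -1.53 ± 0.29 in livers labelled knockout and -1.02 ± 0.26 in wild-type livers after hepatectomy, of -2.06 ± 0.60 in wild-type livers after CCl4, and of -0.71 ± 0.23 and -0.59 ± 0.22 in livers labelled knockout and wild-type livers on Western diet. Rbl2, the pocket protein p130, was called lower in both groups after hepatectomy and on Western diet, and Pttg1 (securin) in wild-type livers after CCl4 and after hepatectomy and in both groups on Western diet. Ccnf and Cks2 were called lower in both groups on Western diet, and Tk1 and Mybl2 in livers labelled knockout there. Of all tested genes, 3.4% and 8.87% were called lower in livers labelled knockout and wild-type livers after CCl4, and 5% and 7.5% after hepatectomy.

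**Figure D5:**
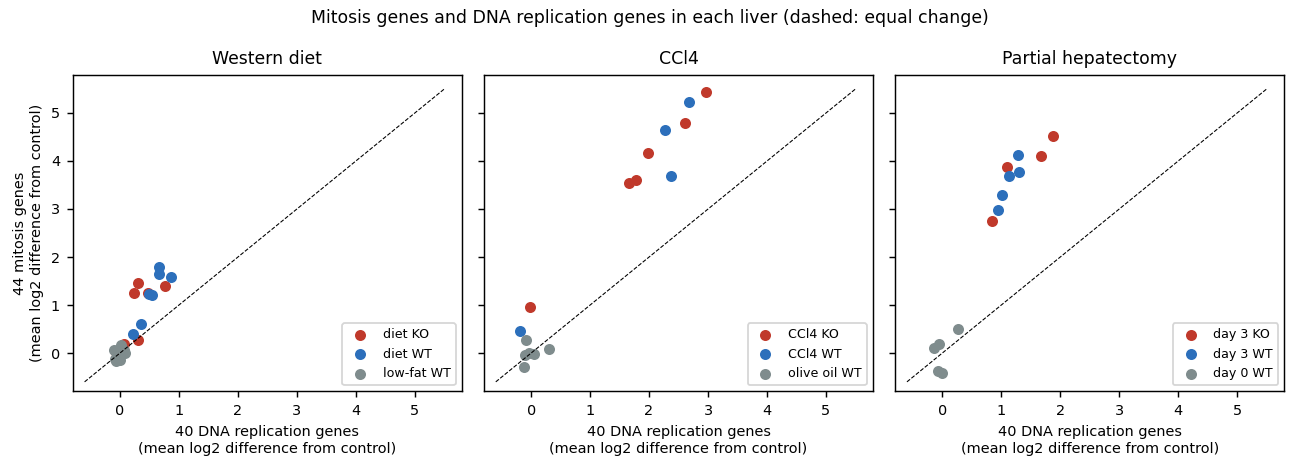
Mitosis score of each liver (y axis) against the same score over 40 genes of DNA replication and S phase (x axis), both in log2 units above the control mean of the experiment, with 1 panel per experiment, 1 point per liver coloured by group, and a dashed line where both scores are equal. Wild-type CCl4 liver 04 stands at 3.68 on the y axis and 2.37 on the x axis.

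Wild-type CCl4 liver 04 had a smaller excess of the mitosis score over the S phase score, 1.31, than livers 07 (2.37) and 05 (2.56). The excess was smaller still in wild-type liver 34 (0.640) and in liver 35, labelled knockout (0.989), whose mitosis scores were low. Cdk1 stood at 43.8 CPM in liver 04, and at 46.2 and 87.5 CPM in livers 07 and 05. Ccnb2 was at 9.13 CPM in liver 04, and at 60.3 and 83.9 CPM in the other two, and Plk1 at 7.08 CPM, and at 32.2 and 43.0 CPM. Cdkn1a was at 138 CPM in liver 04, and at 49.7 and 51.8 CPM in them. This is 1 liver, chosen after its values were seen, and the difference has no replicate.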

How the data were processed

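The authors deposited raw read counts per gene, with no normalization, in 1 table for each of 3 experiments. The submitters' processing notes name TopHat2 2.0.11, HTSeq and the genome build GRCm38. The strand setting and annotation release are not given in the sources used here. Libraries had 2450358 to 15196537 counts. Intervals and floors on counts cover counting error only.

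Each experiment was fitted alone with edgeR 4.0.16 (R 4.3.3): TMM, filterByExpr, group means, the quasi-likelihood F-test, two-sided, and Benjamini-Hochberg adjustment over all tested genes at 0.05. Differences between responses came from 1 fit of 9 groups and 53 livers. DESeq2 1.42.0 and limma 3.58.1 served as alternatives. The tests were tried on simulated data. Scores used a pseudocount of 0.5. No 2 libraries of a group agreed within counting error, the lowest chi-square per degree of freedom being 5.27. Livers are counted as replicates by their labels.

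The members and lists were chosen with earlier results of these data known. All 44 members may be named, with values in every liver for 1 or more of each role and for the extremes. Other named genes were the targeted gene, albumin and those of smallest p in each list. The closing section gives the effect of other normalizations, filters, tools, i5 indexes and single livers.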

Additional observations from a re-analysis of the deposited data

Results flagged for a closer look

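Of 153 groups of 4 to 9 livers examined (representative members and the mitosis score), 10 had 1 liver far from the others. The rule used flags about 1 in 20 groups where values are independent and normal. Many of these levels are near 0 and members move together within a liver, so that rate need not hold here. Aurkb was at 30.9 CPM in CCl4 liver 02, labelled knockout, and at 4.26 to 10.9 CPM in the other livers of that group. The other 9 were control livers. Among day 0 pieces, piece 15 had 6.03 CPM of Mki67 (others 0.282 to 1.57), 2.10 CPM of Prc1 (others 0.447 to 0.912) and 0.262 CPM of Ccnb1, which was at 0 in the others. Piece 14 had 1.22 CPM of Ndc80 (others 0 to 0.149), and piece 16 had 0 CPM of Birc5 (others 1.22 to 1.69). Among olive oil livers, Cdc20 was at 1.26 CPM in liver 29 (others 0.238 to 0.547), Bub1b at 2.39 CPM in liver 28 (others 0.257 to 0.714) and Tpx2 at 3.09 CPM in liver 27 (others 0.238 to 1.01). On low-fat diet, Ccnb1 was at 0.843 CPM in liver 27 (others 0 to 0.368). Values this low rest on few reads.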

How the results depend on the processing

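Counts of members called moved by over 1.5 times in these cases, and the share of all genes called in each is not given here. For livers labelled knockout against low-fat diet, 16 were called with a fold threshold of 1.5, 19 of 24 tested with only the 2 groups compared, 13 within index D501 and 3 within D502. In D502 only livers 33 and 35 were labelled knockout. For wild-type livers against low-fat diet, 20 were called within D502. With only the 2 groups compared, 18 of 18 members that passed the filter were called after CCl4 in livers labelled knockout and 18 of 18 in wild-type livers, since fewer genes were tested. For the response to hepatectomy minus that to Western diet, DESeq2 called 7 and a fit with no filter on low counts 2. A fit without CCl4 livers 34 and 35 called 19. These livers enter the spread shared by all 9 groups, and the cause of the changes in count was not tested. Leaving out 1 liver gave 26 to 36 members called on Western diet in livers labelled knockout and 36 to 39 in wild-type livers, 42 to 44 and 41 to 44 after CCl4, and 43 in both groups after hepatectomy. It gave 0 to 1 for the label after hepatectomy, 18 to 39 for CCl4 minus diet and 1 to 8 for hepatectomy minus diet, and 0 throughout for the other label comparisons and differences. Not every member was followed through these fits in every comparison. Among those followed, direction turned only for values near 0. Kif4 turned for livers labelled knockout against wild type on Western diet (-0.098 within D502, -0.11 to 0.25 without 1 liver). Spc25 (-0.33 within D501, -0.13 to 0.13) and Nek2 (-0.010 with the index as covariate, -0.23 within D501, -0.092 to 0.11) turned in livers labelled knockout against low-fat diet. Top2a turned for the label after hepatectomy (-0.51 to 0.11). The median over all members for the label after CCl4, -0.011, also changed sign without 1 liver, as given above. Same-numbered day 3 and day 0 mice correlated between -0.021 and 0.090 in their deviations, which does not show pairing, and the labels do not say whether a number marks the same mouse on both days. With the mouse number as a replicate block, 39 of 39 members tested were called in wild-type livers after hepatectomy, with a median of 4.27, and not every liver correlated best with its own number. Depth limits the values of members with 3 or fewer control reads to ratios with wide intervals, and group sizes of 4 to 7 limit the label comparisons.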
